A study of Homo sapiens with 12 samples.

Results

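Vehicle-treated U937 cells are described here as they stood on 3 of the 12 arrays of the series, the 3 whose titles name a vehicle control and number them as biological replicates 1 to 3. U937 is an established human leukemia line of the myeloid lineage that resembles an early monocyte and carries the PICALM-MLLT10 fusion. The other 9 arrays hold U937 cells given JS-K, which frees nitric oxide once glutathione has attacked it, for 90 min, 4 h or 24 h, with 3 arrays at each time. No value below comes from a comparison with them. The vehicle arrays are therefore a reference state of 1 cell line in culture medium with 10% serum, with no drug, no genetic change and no second line beside it. Neither the vehicle's composition nor the time the cells spent in it is given in the sources used here. The labels call the replicates biological but do not tie them to separate thaws or days, so the spread below is that between these 3 arrays.

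Blood monocytes, macrophages and neutrophils all come from granulocyte-monocyte progenitors, which pass through a promyelocyte stage when the azurophil granule proteases are made. Leukemia lines stop along this path and keep some of its genes on and others off. The same cells run on glucose, glutamine and lipids taken from the medium, and they carry a glutathione and thioredoxin system against oxidants. JS-K acts through glutathione and glutathione transferases, so the baseline of those genes is part of what the drug meets.

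Each array reports 54675 probe sets as log2 values after GCRMA, a method that corrects the background of each probe from its sequence. A value of 4 was taken as the mark. The 3 arrays had medians of 2.87, 2.89 and 2.88, and between 61.4% and 61.8% of their probe sets lay under 4. A gene was represented by its brightest probe set, which gave 19775 genes, and its mean was tested against 4 with limma and a Benjamini-Hochberg adjustment over all of them. By that test 9362 genes (47.3%) lay above 4, 10026 (50.7%) lay below it and 387 (1.96%) could not be told apart from it. Without a test, 47.7% of genes had all 3 arrays above 4, 51% had all 3 below it and 270 genes had arrays on both sides. Those shares are the background for every count that follows, and a gene called above or below had an adjusted p under 0.05. The median level over all genes was 3.62. A ± is an SD over n = 3 arrays, and 3 values in a row are replicates 1, 2 and 3. Probe sets differ in brightness for reasons of sequence, so no gene's level is set against another gene's. The brightest probe set was chosen on the same 3 arrays that were tested. That choice raises the levels of genes with several probe sets, and the p-values do not allow for it. With the mean of all probe sets of a gene, 8563 genes lay above 4.

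Reference groups lay on opposite sides. None of 82 olfactory receptor genes and none of 18 bitter taste receptor genes lay above 4, whereas 56 of 59 cytosolic ribosomal protein genes did. Of 27 probe sets for bacterial spike-in RNAs, 4 had means above 4, all of them for the dap RNA, and the highest was 5.36. Whether such RNAs were added to the samples was not established here, so the mark is not shown to be a limit of detection. A gene below 4 is not shown to be silent either: ATP5MF, a subunit of the ATP synthase, and CD59, a complement inhibitor on most blood cells, both fell below. Among the 10523 genes with several probe sets, 3832 (36.4%) had probe sets on both sides of 4.

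The gene lists divided unevenly. Of 311 metabolic genes measured, 246 (79.1%) lay above 4, with a median level of 10.10. Redox genes came next at 107 of 172 (62.2%, median 7.38). Receptor genes stood at 143 of 327 (43.7%, median 3.41), near the share over all genes. Lineage genes, which include markers of many cell types other than the myeloid ones, stood at 98 of 288 (34.0%, median 2.76).

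**Figure D1:**
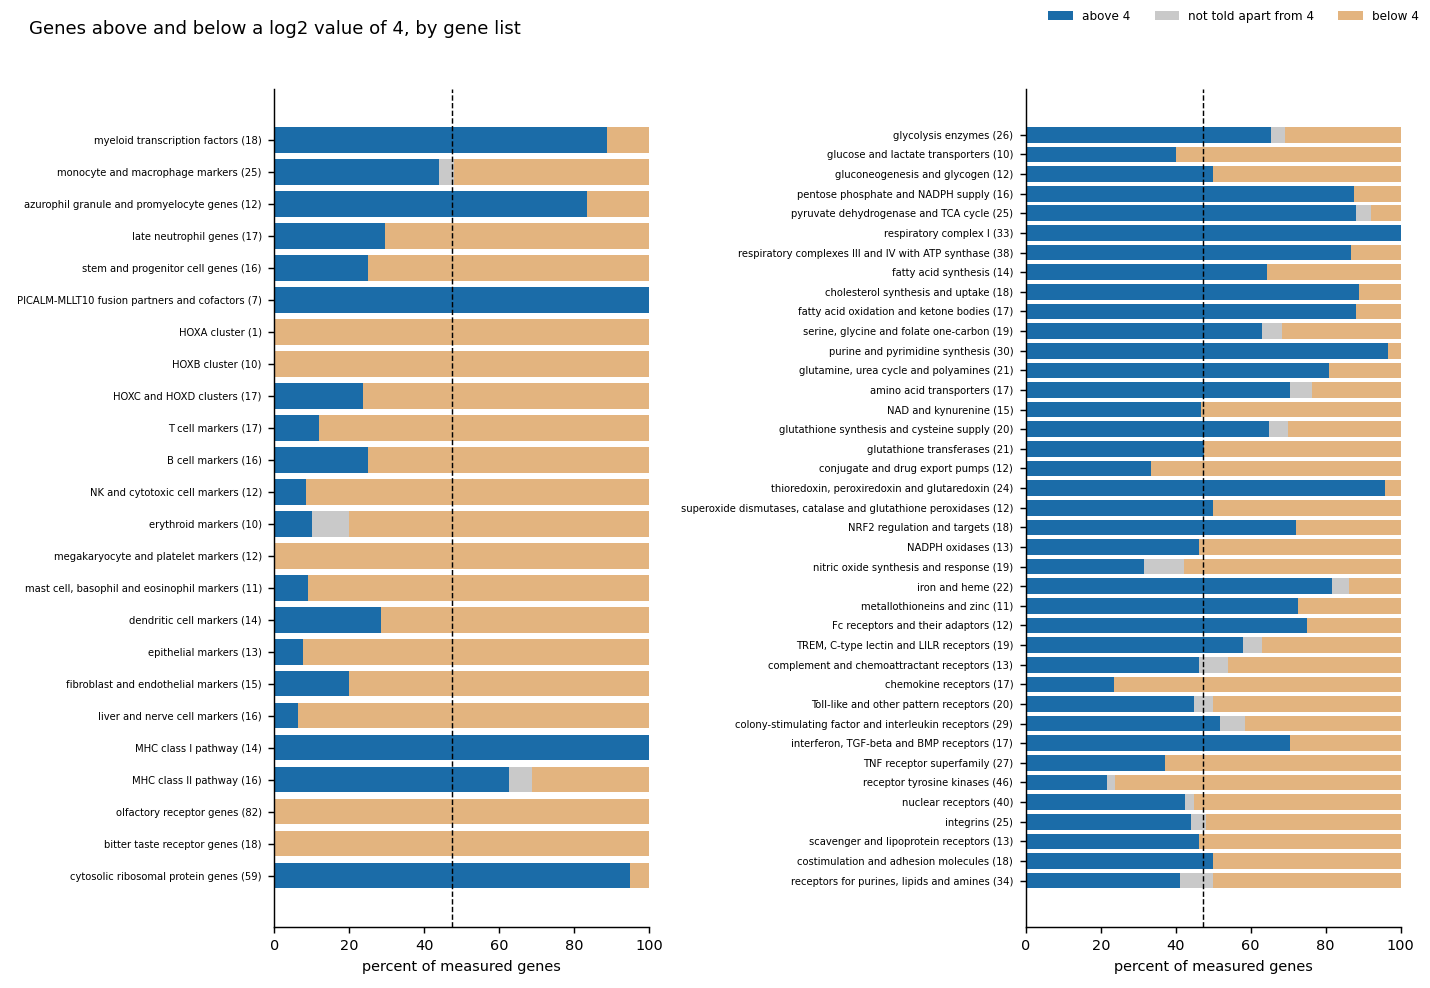
Stacked bars give the percent of measured genes in each list that lay above a log2 value of 4 (blue), below it (tan) or not told apart from it (grey) on the 3 vehicle arrays; the number measured is in brackets and the dashed line marks the 47.3% above 4 over all 19775 genes. Respiratory complex I and the MHC class I pathway lay wholly above 4, and the olfactory, bitter taste, HOXB and platelet lists wholly below it.

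The myeloid transcription factors were above the mark as a group, 16 of 18 (88.9%, median 9.28). SPI1, which encodes PU.1 and is needed for all monocytes and granulocytes, read 5.84, 5.65 and 5.77. CEBPA, the factor that commits progenitors to the granulocyte-monocyte path, read 10.64, 10.72 and 10.75. IRF8, which favours monocytes over neutrophils, read 11.33, 11.19 and 11.18. These 3 factors were above 4 on every vehicle array. MYB, a factor of dividing progenitors, read 12.68, 12.42 and 12.51, and GFI1, a repressor needed for neutrophil formation, read 10.60, 10.84 and 10.70. Both were above 4 on all arrays. The 2 members below the mark were CEBPD at 2.73 ± 0.04, a factor induced in inflammation and granulocyte maturation, and MAF at 2.77 ± 0.02, a factor of mature macrophages, whose 6 probe sets were all below. CEBPB, CEBPE, KLF4, IRF5, LMO2 and MEF2C were among the rest above 4.

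Azurophil granule and promyelocyte genes were above 4 for 10 of 12 measured members (83.3%, median 12.04). The serine proteases of the granule were read well over the mark on each array. ELANE, neutrophil elastase, read 13.49, 13.65 and 13.69, and CTSG, cathepsin G, read 13.40, 13.34 and 13.37. PRTN3, proteinase 3, read 11.26, 11.65 and 11.63, and AZU1, its inactive antimicrobial relative, read 11.98, 12.12 and 12.16. MS4A3, a membrane protein that marks granulocyte-monocyte progenitors, read 10.45, 10.45 and 10.50. MPO, the peroxidase that fills the same granules, stood on the other side at 2.35, 2.37 and 2.38, with both of its probe sets below 4 (adjusted p = 1.8e-09). DEFA4, an azurophil defensin, was also below at 2.02 ± 0.02. The protease genes and MPO thus lay on opposite sides of 4 on all 3 arrays.

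The stretch before the start of CTSG is printed as an example of a myeloid promoter with few CG pairs, a measure given for the lists at the end. It covers chr14:24576251-24576500 on the minus strand, 250 bases upstream of the RefSeq start in GRCh38.p14, with each CG pair in capitals.
CTSG: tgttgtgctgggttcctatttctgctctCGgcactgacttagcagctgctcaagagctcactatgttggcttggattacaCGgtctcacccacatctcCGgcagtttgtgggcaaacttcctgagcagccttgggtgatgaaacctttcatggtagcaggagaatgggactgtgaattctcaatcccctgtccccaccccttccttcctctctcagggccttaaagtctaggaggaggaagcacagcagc

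Monocyte and macrophage markers were split, with 11 of 25 above 4, 13 below and 1 not told apart (44.0% above, median 2.91). LYZ, lysozyme, read 13.88, 13.92 and 13.85, and ITGAM, the CD11b chain of complement receptor 3, read 7.59, 7.59 and 7.50 on the brighter of its 2 probe sets. S100A8, a calcium-binding alarmin of monocytes and neutrophils, read 8.02, 7.78 and 7.71 on the 1 of its 2 probe sets above 4. CD14, the lipopolysaccharide co-receptor that defines classical monocytes, was below at 2.14, 2.17 and 2.16. FCGR1A, the high-affinity IgG receptor, was below at 2.20, 2.21 and 2.20. S100A9 and MNDA were also above 4, and VCAN and S100A12 below. The share of this list above the mark was thus near the 47.3% over all genes. CD163, MRC1, VSIG4, SIGLEC1 and the 3 C1q chains, all genes of mature macrophages, were below as well. Other members of the list went the other way: MARCO, MS4A7, LILRB1, APOE, FCN1 and CYBB were above. APOE was above on 1 of 3 probe sets and was called below with the mean of them. CSF1R, the receptor for macrophage colony-stimulating factor, read 4.46, 4.49 and 3.60, with 2 arrays above the mark and 1 below, and was not told apart from 4 (adjusted p = 0.392). Without replicate 3 its mean was 4.48 and the call was above 4 (adjusted p = 0.00121).

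Late neutrophil genes, made after the promyelocyte stage, were mostly below: 12 of 17, with a list median of 2.73. LTF, lactoferrin of the secondary granules, read 2.15, 2.15 and 2.14, and CEACAM8, a surface marker of neutrophils, read 2.43, 2.47 and 2.46. LCN2, MMP8, CRISP3, OLFM4, ARG1 and FCGR3B lay on the same side. The 5 above 4 were CAMP, MMP9, CEACAM6, CXCR2 and CHI3L1.

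Of 16 stem and progenitor cell genes, 12 were below (25% above, median 2.64). CD34, the surface marker used to sort progenitors, read 2.01, 2.04 and 2.04. The receptor KIT read 2.38, 2.38 and 2.38, the receptor FLT3 read 2.32, 2.34 and 2.33 and the ectoenzyme CD38 read 2.40, 2.54 and 2.48. All 4 surface genes were therefore below 4 on every array. GATA2, a stem and progenitor transcription factor, read 4.30, 4.73 and 5.04 (adjusted p = 0.00707) on the one of its 3 probe sets above 4, and its mean over the 3 probe sets was 3.31. MEIS1, LYL1 and MSI2 completed the 4 above.

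The genes tied to the PICALM-MLLT10 fusion were above 4 without exception, 7 of 7. PICALM, a clathrin adaptor, read 9.97, 10.07 and 9.99, and MLLT10, a partner of the histone methyltransferase DOT1L, read 7.95, 7.54 and 7.70. An array probe set cannot tell the fusion transcript from those of the intact genes. DOT1L, XPO1, PBX3, COMMD3 and MEIS1 were the others. HOX genes set body position in the embryo and are kept on in many acute leukemias. All 10 HOXB genes were below 4, as was HOXA2, the one HOXA gene analysed here. Of 17 HOXC and HOXD genes 4 were above, namely HOXC4, HOXC6, HOXC8 and HOXC10, all from the HOXC cluster.

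Markers of other cell types were largely below the mark. T cell genes were below for 15 of 17, with CD3D at 2.20, 2.24 and 2.27. The 2 above were CD4, which monocytes also carry, at 8.77 ± 0.09 on the brighter of 2 probe sets, and LAT, an adaptor of T cell receptor signalling, at 6.28 ± 0.07. NK and cytotoxic genes were below for 11 of 12, with GZMB, granzyme B, at 2.23, 2.26 and 2.25 and PRF1, perforin, at 2.64, 2.66 and 2.64. NKG7, a membrane protein of cytotoxic granules, was the exception at 11.87, 11.65 and 11.75. B cell genes were below for 12 of 16. MS4A1, which encodes CD20, read 2.56, 2.60 and 2.53, whereas PAX5, the factor that fixes B cell identity, read 6.12, 5.95 and 5.91 on 1 of 2 probe sets. BLNK, EBF1 and FCER2 were the other B cell list members above 4. Platelet genes were below for 12 of 12, with ITGA2B at 2.66, 2.74 and 2.76 and PF4 at 2.19, 2.20 and 2.18.

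Among 10 erythroid genes, 8 were below, including the factor GATA1 at 2.22, 2.24 and 2.24. TFR2, a second transferrin receptor, was above at 6.27 ± 0.26. KLF1, an erythroid factor, read 4.16, 4.28 and 5.16 and could not be told apart from 4, but without replicate 1 or 2 it was called above (means 4.72 and 4.66). Mast cell, basophil and eosinophil genes were below for 10 of 11. TPSAB1, a tryptase, was the exception at 11.24 ± 0.16, but its probe sets above 4 are of the type that can match several transcripts, and without them the gene read 2.04. Dendritic cell genes were below for 10 of 14, with TCF4, IRF7, BATF3 and CD83 above.

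Genes of solid tissues were also mostly below the mark. Epithelial genes were below for 12 of 13, with EPCAM at 2.82, 2.86 and 2.84 and CDH1, E-cadherin, at 2.25, 2.26 and 2.25. MUC1, a mucin, was above at 4.39 ± 0.08 on 1 of 3 probe sets. Fibroblast and endothelial genes were below for 12 of 15, with CDH5, the endothelial cadherin, at 2.35, 2.37 and 2.35. COL1A1, a collagen chain, was above on 1 of 5 probe sets (5.04, 5.20 and 5.18), while FAP, a fibroblast protease, stood at 7.67 ± 0.03 and CLDN5, a tight junction protein, at 4.72 ± 0.05. Liver and nerve genes were below for 15 of 16, with ALB, albumin, at 2.60, 2.69 and 2.62 and SNAP25, a synaptic protein, at 2.35, 2.40 and 2.37. GAD1, which makes the transmitter GABA, was above at 5.67 ± 0.02 on 1 of 3 probe sets. EPCAM, CDH1, CDH5, ALB and SNAP25 were thus below 4 on all 3 arrays, whereas the fibroblast gene FAP was above. The COL1A1 probe set above 4 is of the type that can match several transcripts. Without that type COL1A1 read 2.70 and was called below.

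Most genes of both antigen presentation lists were above. MHC class I genes, carried by nearly all nucleated cells, were above for 14 of 14, with B2M, the light chain, at 14.13, 14.07 and 14.11. Class II genes are limited mainly to professional presenting cells, and the list of their pathway was above for 10 of 16 (62.5%). That count includes CTSS, RFX5, RFXANK and RFXAP, which are not class II chains. Of the chains, HLA-DRB1, HLA-DMA, HLA-DMB and HLA-DOB were above. HLA-DRB1 rested on 1 probe set, of the type that can match several transcripts. HLA-DOB was called below with the mean of its 2 probe sets. CIITA, the master regulator of class II genes, was below at 2.39, 2.42 and 2.41 on all 3 probe sets. CD74, the invariant chain, read 8.55, 8.74 and 8.54 on 1 of 3 probe sets, and HLA-DRA read 4.95, 4.85 and 5.05 on 1 of 2. HLA-DPB1, a beta chain, read 3.80, 3.96 and 3.95 and could not be told apart from 4. The DP and DQ genes HLA-DPA1, HLA-DQA1 and HLA-DQB1 were below, and so was HLA-DOA. HLA genes are alike in sequence and vary between people, so their probe sets are less certain than most.

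**Figure D2:**
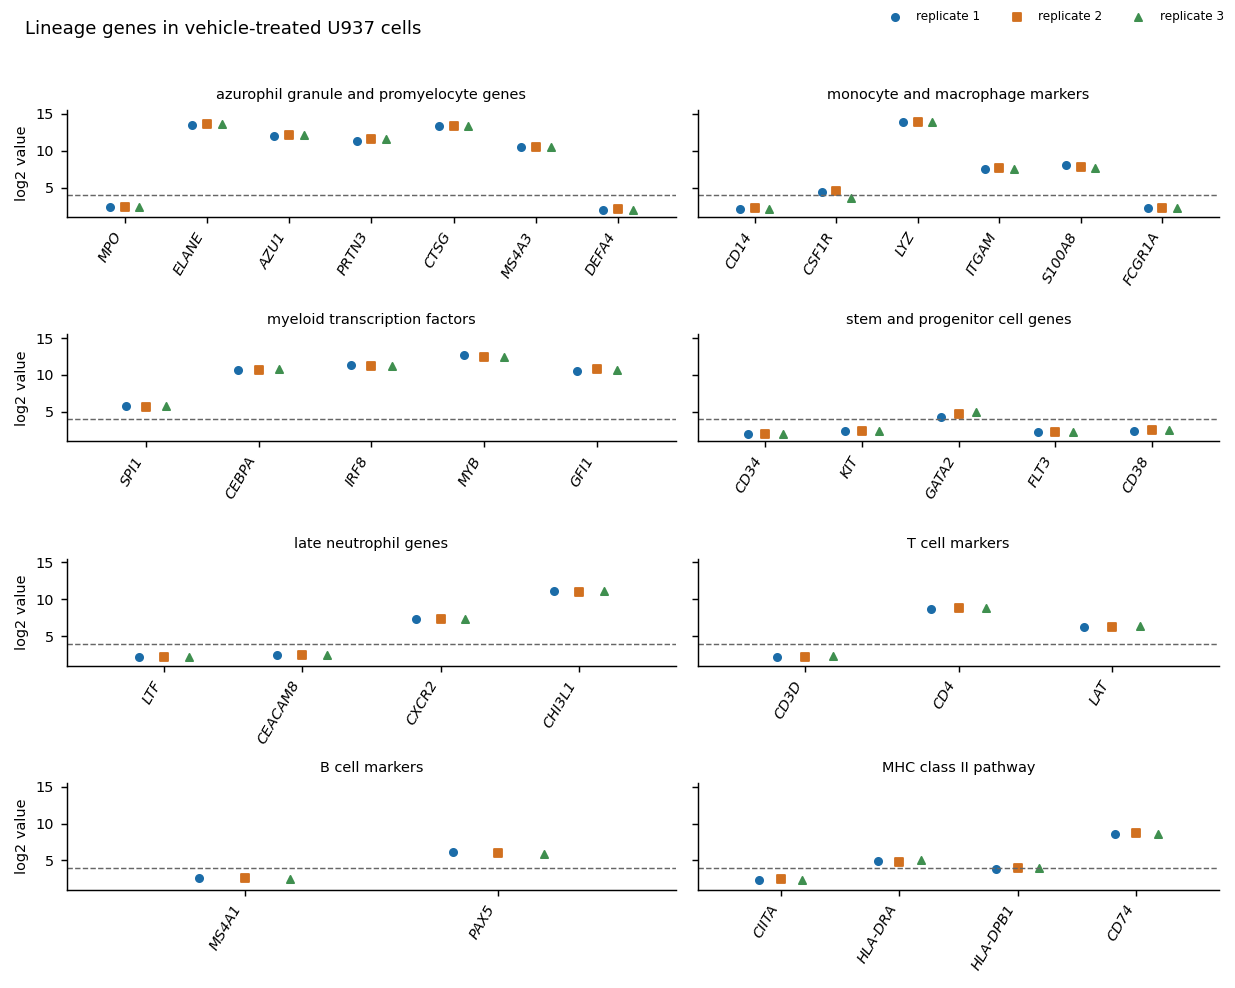
Each panel plots log2 values (vertical axis) of named lineage genes on the 3 vehicle arrays, one symbol per replicate, with the dashed line at 4. Granule proteases and myeloid factors lie well over the line, whereas MPO, CD14, FCGR1A and CD34 lie under it, and CSF1R straddles it.

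Glycolysis enzymes were above 4 for 17 of 26 members (65.4%, median 9.42), and the divide ran between isoforms. HK2, a hexokinase that feeds glucose into the pathway, read 9.88, 9.69 and 9.69. PKM, which makes pyruvate, read 12.72, 12.68 and 12.76, and LDHA, which turns it to lactate, read 13.58, 13.53 and 13.53. HK1, GPI, ALDOA, GAPDH, PGK1, ENO1 and LDHB lay on the same side. HK3, a hexokinase of mature myeloid cells, was below at 3.25, 3.13 and 3.19, and so were PKLR of liver and red cells, PGAM2 of muscle, LDHC of testis and ENO2 of neurons. ENO3, the muscle enolase, read 4.05, 3.97 and 4.46 and could not be told apart from 4. The list's members above 4 therefore held 1 or more enzymes for every step from glucose to lactate that was measured.

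Glucose and lactate transporters were above 4 for 4 of 10 genes. SLC2A1, the widespread GLUT1, read 6.22, 5.99 and 5.92 on the brighter of 2 probe sets, and with the mean of both it could not be told apart from 4 (4.13, adjusted p = 0.0503). SLC2A3, the high-affinity GLUT3, read 6.92, 7.46 and 7.29. SLC2A5 and SLC2A9 were the other 2. Gluconeogenesis and glycogen genes split evenly, 6 of 12 on each side. PCK2, the mitochondrial form of the enzyme that opens gluconeogenesis, read 8.90, 9.13 and 9.01. PCK1, its cytosolic form, read 3.03, 3.12 and 3.07, and FBP1, a later enzyme of the same pathway, read 1.91, 1.92 and 1.92. PCK1, FBP1 and FBP2 were thus below 4, while PC and the glycogen enzymes GYS1, PYGL, PYGB and GBE1 were above.

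Genes of the pentose phosphate path and NADPH supply were above for 14 of 16 (87.5%, median 10.32). NADPH is the reductant that glutathione and thioredoxin reductases draw on. PGD, which makes NADPH in the oxidative branch, read 11.01, 11.22 and 11.16 on the 1 of its 3 probe sets above 4. TKT, transketolase of the other branch, read 12.94, 12.84 and 12.73, and IDH1, a cytosolic NADPH source, read 12.72, 12.60 and 12.57. ME1, the cytosolic malic enzyme, was below at 2.73, 2.80 and 2.75, and TKTL1, a transketolase-like gene, was below at 2.23 ± 0.01. The mitochondrial enzymes IDH2, ME2, ME3, NNT and NADK2 were all above.

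Mitochondrial genes were mostly above the mark. Pyruvate dehydrogenase and citric acid cycle genes were above for 22 of 25 (88.0%, median 10.91), with CS, citrate synthase, at 10.99, 11.04 and 11.18. PDK4, a kinase that shuts pyruvate dehydrogenase during fasting, was below at 2.70, 2.76 and 2.81, and PDHA2, a testis subunit, at 2.56 ± 0.02. PDK2 read 3.72, 3.75 and 4.27 and could not be told apart, though without replicate 3 it was called below (3.73). PDK1 and PDK3 were above 4. Respiratory complex I was above for 33 of 33 subunits, between 9.00 and 13.55. Complexes III and IV and the ATP synthase were above for 33 of 38. Their tissue-limited isoforms accounted for most of the rest. COX4I2 of lung read 2.67, 3.19 and 3.03, COX6A2 of heart and muscle read 2.16, 2.18 and 2.17 and COX7A1 of the same tissues read 2.12, 2.15 and 2.14. COX6B2 of testis was also below.

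Lipid genes were also mostly above. Fatty acid synthesis genes were above for 9 of 14 (64.3%). ACLY, which makes acetyl-CoA from citrate, read 11.56, 11.51 and 11.55. ACACA, the carboxylase that makes malonyl-CoA, read 9.10, 9.10 and 9.15, and FASN, the synthase, read 8.66, 8.70 and 8.74. SCD, which adds the first double bond, read 12.65, 12.91 and 12.75. Each of these core enzymes was above 4 on all arrays, whereas ELOVL2, ELOVL3, ELOVL6, THRSP and MLXIPL were below. Cholesterol synthesis genes were above for 16 of 18 (88.9%, median 9.57), with HSD17B7 (3.32 ± 0.03) and TM7SF2 (3.20 ± 0.18), both late sterol enzymes, below. Fatty acid oxidation genes were above for 15 of 17, with CPT1A, which admits fatty acids to mitochondria, at 9.43, 9.47 and 9.33. CPT1C, a brain form, was below at 2.34 ± 0.03, and ACADL, a long-chain dehydrogenase, at 2.40 ± 0.03.

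One-carbon genes were above for 12 of 19 (63.2%, median 9.93). PHGDH, which starts serine synthesis from glucose, read 10.53, 10.49 and 10.49. SHMT2 and MTHFD2, which move serine's carbon onto folate in mitochondria, read 11.78, 11.82 and 11.82 and 11.91, 11.90 and 11.95. SHMT1, the cytosolic counterpart of SHMT2, was below. GLDC, of the glycine cleavage system, was below at 2.42, 2.46 and 2.48, and AMT, its partner, read 3.91, 4.47 and 4.41 and could not be told apart unless replicate 1 was left out, when it was called above (4.44). Purine and pyrimidine genes were above for 29 of 30 (96.7%, median 10.29). IMPDH2, which commits to guanine nucleotides, read 12.85, 12.63 and 12.77, and RRM2, the ribonucleotide reductase subunit of dividing cells, read 12.99, 13.02 and 13.07. DCK, which activates deoxynucleoside drugs, read 10.07, 10.29 and 9.95. DHODH, a mitochondrial pyrimidine enzyme, read 6.08, 5.54 and 6.14 on the one of its 3 probe sets above 4. XDH, which degrades purines to urate, was the one below at 3.33 ± 0.01.

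Glutamine, urea cycle and polyamine genes were above for 17 of 21 (81.0%, median 10.00). GLUL, glutamine synthetase, read 13.03, 13.05 and 12.94, and ASNS, asparagine synthetase, read 8.14, 8.36 and 8.43. ASS1, which rebuilds arginine from citrulline and is lost in some tumours, was above at 11, 11 and 11.05. ODC1, which starts polyamine synthesis, read 12.23, 12.27 and 12.30. OTC, a liver urea cycle enzyme, was below at 2.12, 2.16 and 2.16. Amino acid transporters were above for 12 of 17. SLC1A5, a glutamine carrier, read 9.81, 10.17 and 9.93, and SLC7A5, the large neutral amino acid carrier, read 10.28, 10.40 and 10.39. SLC7A7, a cationic amino acid carrier of macrophages, read 4.85, 3.89 and 4.63 and could not be told apart from 4. Leaving out replicate 2 or 3 put SLC7A7 above (4.74 and 4.37). In NAD metabolism 7 of 15 genes were above. NAMPT, the salvage enzyme for nicotinamide, read 9.50, 9.42 and 9.44, and NAPRT, that for nicotinic acid, read 10.02, 10.14 and 10.13. IDO1, which degrades tryptophan, was below at 2.22, 2.23 and 2.21, so both NAD salvage entries were above the mark and the first kynurenine enzymes IDO1, IDO2 and TDO2 were below.

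Glutathione synthesis and cysteine supply genes were above for 13 of 20 (65.0%, median 8.92). Glutathione is built by GCLC with its modifier GCLM and then GSS, and is restored from its oxidised form by GSR. GCLC read 9.02, 8.87 and 9.07 and GCLM read 9.25, 9.50 and 9.57. GSS read 9.93, 10.06 and 9.99 and GSR read 9.45, 9.42 and 9.27. The full synthesis and recycling route was above 4 on all arrays. SLC7A11, which imports cystine, read 8.17, 8.33 and 8.17. CTH and CBS, which make cysteine from methionine, read 9.00, 8.67 and 8.89 and 6.31, 6.64 and 6.65. GGT1, GGT5 and GGT7, which break glutathione down outside the cell, were below. Of the enzymes that break it down inside the cell, CHAC1 was below and CHAC2 was above. GGCT, the next enzyme of that route, was above, and OPLAH, a 5-oxoprolinase, read 4.10, 4.16 and 3.30 and could not be told apart.

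Glutathione transferases join glutathione to electrophiles, and for JS-K that reaction frees nitric oxide. Their promoters are printed for a member above 4 and for 2 below it, so that the classes can be compared. Each line holds the 250 bases upstream of the RefSeq start in GRCh38.p14, with CG pairs and any TATAAA in capitals. GSTP1 covers chr11:67583562-67583811 on the plus strand, GSTA1 covers chr6:52803817-52804066 on the minus strand and GSTM1 covers chr1:109687567-109687816 on the plus strand.
GSTP1: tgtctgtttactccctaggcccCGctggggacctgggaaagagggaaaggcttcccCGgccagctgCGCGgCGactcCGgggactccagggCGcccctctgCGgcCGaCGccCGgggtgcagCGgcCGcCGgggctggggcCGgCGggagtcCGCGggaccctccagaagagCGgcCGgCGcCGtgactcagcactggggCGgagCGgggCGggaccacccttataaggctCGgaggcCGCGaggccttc
GSTA1: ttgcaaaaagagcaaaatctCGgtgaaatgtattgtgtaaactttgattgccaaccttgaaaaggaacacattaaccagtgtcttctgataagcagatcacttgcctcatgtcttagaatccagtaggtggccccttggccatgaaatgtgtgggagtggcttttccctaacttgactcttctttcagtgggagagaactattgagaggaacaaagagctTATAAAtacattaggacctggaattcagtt
GSTM1: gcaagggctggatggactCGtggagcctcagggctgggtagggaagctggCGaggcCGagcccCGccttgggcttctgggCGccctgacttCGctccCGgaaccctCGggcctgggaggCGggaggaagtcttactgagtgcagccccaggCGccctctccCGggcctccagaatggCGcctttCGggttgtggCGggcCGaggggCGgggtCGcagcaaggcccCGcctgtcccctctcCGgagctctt
The printed GSTP1 stretch holds 28 CG pairs, that of GSTM1 holds 19 and that of GSTA1 holds 1. TATAAA occurs in GSTA1 alone of the 3, with its first base at -30 from the start. GSTP1 and GSTM1 thus both have CG-rich promoters although GSTP1 lay above 4 and GSTM1 below it.

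Of 21 glutathione transferase genes 10 were above 4 and 11 below (47.6% above, median 2.85), a share near the 47.3% over all genes. The alpha and omega classes had members on both sides of 4. GSTP1, the single pi-class gene, read 11.35, 11.82 and 11.62. GSTO1 of the omega class read 12.92, 12.95 and 12.95, and GSTK1, the kappa-class form, read 10.18, 10.45 and 10.37. MGST1, a membrane-bound form, read 12.13, 12.19 and 12.13, with 4 of its 5 probe sets above. MGST2, MGST3, LTC4S, GSTZ1 and GSTCD were above too. In the alpha class GSTA4, which acts on lipid peroxidation products, read 7.50, 7.61 and 7.50, whereas GSTA1, the main liver form, read 2.66, 2.67 and 2.66. All 5 mu-class genes were below, with GSTM1 at 2.28, 2.29 and 2.28. The mu genes are alike in sequence and GSTM1 is missing from many human genomes, so their probe sets cannot separate a silent gene from a lost one. GSTT1, GSTT2, GSTO2, GSTA3 and HPGDS were also below.

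Export pumps for conjugates and drugs were above for 4 of 12. ABCC1, which carries glutathione conjugates out of the cell, read 8.34, 8.12 and 8.27. ABCC4, ABCC5 and ABCC10 were the others above. ABCB1, the multidrug pump P-glycoprotein, was below at 2.74, 2.88 and 2.85, and ABCG2, a further multidrug pump, was below at 2.05, 2.06 and 2.05.

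The thioredoxin, peroxiredoxin and glutaredoxin list was above for 23 of 24 (95.8%, median 10.23). TXN, thioredoxin, read 13.19, 13.25 and 13.28. TXNRD1, the cytosolic thioredoxin reductase, read 10.75, 10.54 and 10.68 on the 1 of its 2 probe sets above 4. TXNIP, which binds and blocks thioredoxin, read 9.15, 8.92 and 8.97. SRXN1, which repairs peroxiredoxins, read 7.17, 7.20 and 7.18. Peroxiredoxins PRDX1, PRDX2, PRDX3, PRDX4 and PRDX6 were all above. SESN3, a sestrin, was the one below at 3.69 ± 0.10, on all 7 of its probe sets.

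Superoxide dismutases, catalase and glutathione peroxidases divided into 6 above and 6 below. SOD1 of the cytosol read 13.39, 13.42 and 13.49. SOD2 of mitochondria read 6.28, 6.11 and 5.41 on the 1 probe set used for it, with replicate 3 the lowest and an SD of 0.46. CAT, catalase, read 12.46, 12.46 and 12.46, and GPX4, which reduces lipid peroxides, read 12.54, 12.66 and 12.60. GPX1 was above as well. SOD3, the secreted dismutase, was below at 2.51, 2.52 and 2.51, and so were GPX2, GPX3, GPX5, GPX7 and GPX8.

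NRF2 is the factor that turns on many of these genes when KEAP1 releases it. Of 18 regulators and targets 13 were above (72.2%, median 7.98). NFE2L2, the NRF2 gene, read 11.08, 11.28 and 11.20, and KEAP1 read 9.08, 9.25 and 9.25. NQO1, a quinone reductase and classic target, read 9.00, 9.09 and 9.10. HMOX1, heme oxygenase 1, read 2.75, 2.26 and 2.58 and was below (adjusted p = 2.52e-05). The classic targets were thus on both sides: NQO1, GCLM and SRXN1 above, and HMOX1, OSGIN1, AKR1B10, AKR1C1 and AKR1C3 below.

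NADPH oxidase genes were above for 6 of 13. The phagocyte enzyme is built from CYBB and CYBA in the membrane and from cytosolic partners. CYBB read 8.56, 7.50 and 8.11, with replicate 2 the lowest and an SD of 0.53. CYBA read 11.76, 11.67 and 11.66 on the 1 of its 2 probe sets above 4. NCF4 read 9.88, 10.17 and 10.15 and RAC2 read 11.42, 11.56 and 11.56. NCF1, the p47phox organiser, read 4.14, 4.28 and 4.43 (adjusted p = 0.0188), just over the mark, and without replicate 3 it could not be told apart from 4 (adjusted p = 0.0948). It has near-identical pseudogenes that the probe set may also match. The other oxidases NOX1, NOX3, NOX4, NOX5, DUOX1 and DUOX2 were all below 4. The subunits of the phagocyte oxidase that were measured were therefore above, and the catalytic subunits of other tissues were not.

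Nitric oxide genes were mostly below, with 6 of 19 above (31.6%, median 2.92). NOS1 of neurons read 2.35, 2.41 and 2.37, NOS2 of activated macrophages read 2.23, 2.25 and 2.25 and NOS3 of endothelium read 2.86, 2.92 and 2.85. All 3 synthases were below on every array. The receptor for nitric oxide is soluble guanylate cyclase, whose subunits GUCY1A1 and GUCY1B1 read 2.67, 2.69 and 2.69 and 2.37, 2.39 and 2.39. A further alpha subunit, GUCY1A2, read 4.90, 3.74 and 4.26 and could not be told apart from 4, except without replicate 2, when it was called above (4.58). The cGMP kinases PRKG1 and PRKG2 and the phosphodiesterase PDE5A were also below. ADH5, which reduces S-nitrosoglutathione and so removes stored nitric oxide, was above at 10.51, 10.39 and 10.45. DDAH2, which degrades inhibitors of the synthases, read 4.61, 3.74 and 4.03 and could not be told apart.

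Iron and heme genes were above for 18 of 22 (81.8%, median 8.78). TFRC, the transferrin receptor of dividing cells, read 12.26, 12.17 and 12.17. SLC40A1, the iron exporter ferroportin, read 4.26, 4.12 and 4.12, close to the mark (adjusted p = 0.0496). Leaving out any 1 replicate ended that call (adjusted p from 0.0832 to 0.147). SLC11A1, an iron transporter of macrophage phagosomes, was below at 3.86 ± 0.05, a call that also ended when any 1 replicate was left out (adjusted p from 0.0573 to 0.281). HAMP, the hormone hepcidin, was below at 3.58 ± 0.17, but with all 12 arrays in the fit it could not be told apart from 4 (adjusted p = 0.164). Also below was CP, ceruloplasmin (3.26 ± 0.04). HFE, a regulator of iron uptake, read 3.50, 4.12 and 4.00 and could not be told apart. The 7 heme synthesis enzymes of the list, from ALAS1 through ALAD, UROS, UROD, CPOX and PPOX to FECH, were above, whereas ALAS2, the red cell form on the erythroid list, was below. ALAD was above on 1 of 2 probe sets. PPOX was above on 1 of 3 and could not be told apart from 4 with the mean of them. Metallothionein and zinc genes were above for 8 of 11. MT2A, a metal-binding metallothionein, read 8.52, 8.51 and 8.72, and MT1X read 7.80, 7.82 and 7.90. MT1M (2.39 ± 0.02), MT3 of brain (2.39 ± 0.02) and MT4 of epithelia (2.21 ± 0.01) were below. Metallothionein genes are near copies of each other, so their probe sets may share signal.

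**Figure D3:**
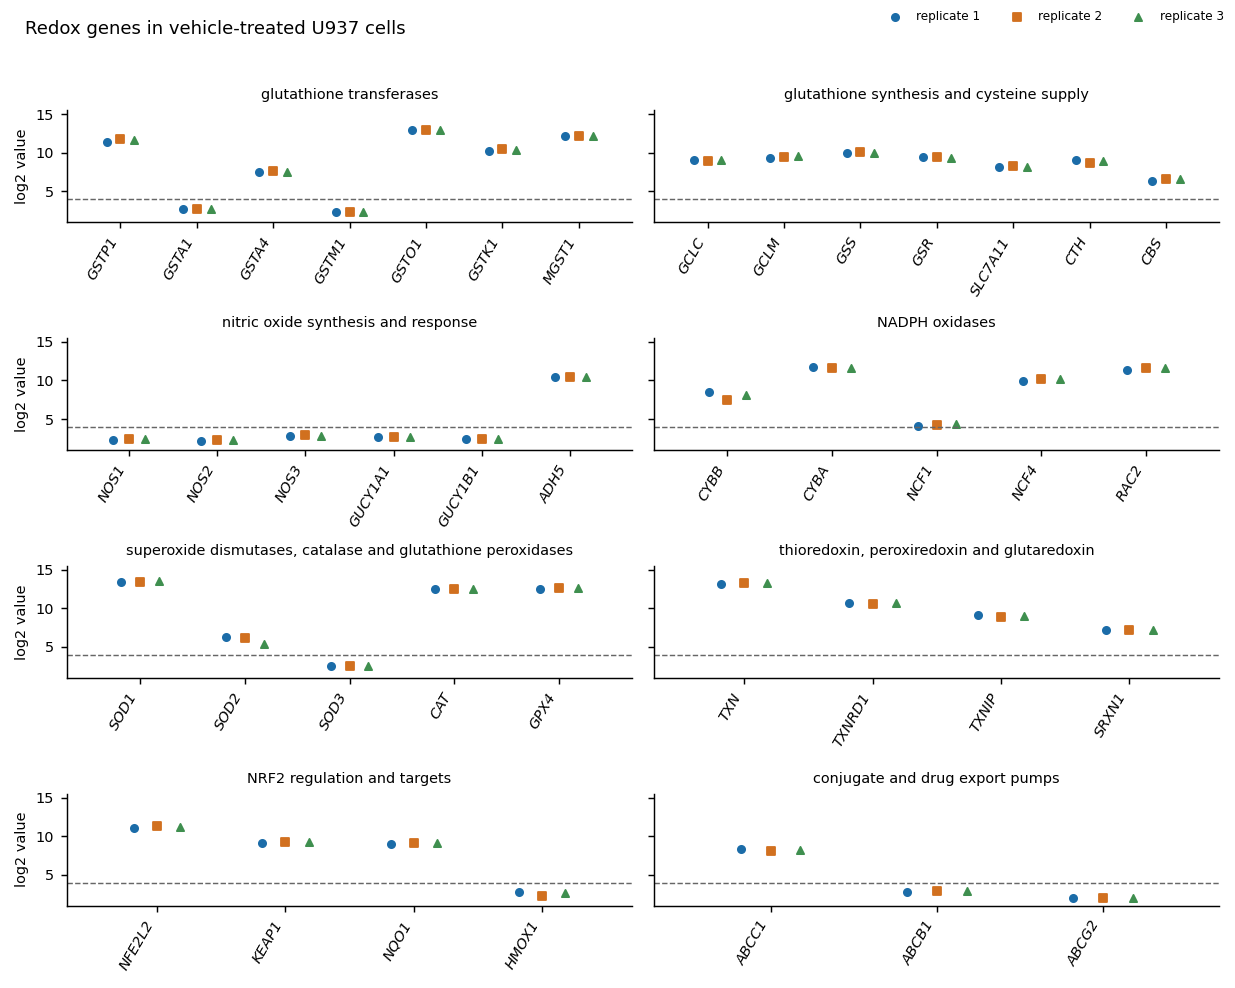
Each panel plots log2 values (vertical axis) of named redox genes on the 3 vehicle arrays, one symbol per replicate, with the dashed line at 4. The glutathione synthesis genes all lie over the line, NOS1, NOS2, NOS3, GUCY1A1 and GUCY1B1 under it, and CYBB and SOD2 show the widest separation of replicates.

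Fc receptors and their adaptors were above for 9 of 12 (75%, median 8.03). FCGR2A, a low-affinity IgG receptor, read 7.94, 7.76 and 7.70. FCAR, the IgA receptor, read 6.63, 5.89 and 6.66, with replicate 2 the lowest. FCER1G, the signalling adaptor of FCAR and FCGR1A, read 10.03, 10.22 and 10.24, and TYROBP, an adaptor of other activating receptors, read 9.08, 9.21 and 9.22. Both adaptors were above 4, and FCGR1A was below as given before. FCGR3B of neutrophils (2.28 ± 0.02) and FCER1A of mast cells (3.38 ± 0.03) were the others below.

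Related myeloid surface receptors of the TREM, C-type lectin and LILR families were above for 11 of 19. CLEC5A, a lectin that signals through TYROBP, read 9.54, 9.59 and 9.67, and CLEC12A, a lectin common on myeloid leukemia cells, read 9.51, 9.57 and 9.60. LILRB2, an inhibitory receptor, read 5.31, 5.23 and 5.32. TREM1, an activating receptor of mature phagocytes, read 4.40, 4.35 and 3.96 and could not be told apart, but without replicate 3 it was called above (4.38). TREM2, CLEC4E and CLEC7A were below.

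Receptors that guide phagocytes were split. Complement and chemoattractant receptors were above for 6 of 13. C5AR1, the C5a receptor, was below at 3.16, 3.17 and 2.92, and FPR1, the formyl peptide receptor, was below at 2.92, 2.98 and 2.93. C3AR1, FPR2, LTB4R and PTAFR were above. CR1, complement receptor 1, read 3.93, 4.36 and 4.31 and could not be told apart, but without replicate 1 it was called above (4.34). Chemokine receptors were above for 4 of 17 (23.5%, median 2.42). CXCR4, which holds leukemia cells in marrow, read 12.95, 13 and 12.87. CCR1 read 6.46, 6.21 and 6.59, and CCR2, the receptor that brings classical monocytes out of marrow, was below at 2.05, 2.07 and 2.06. CXCR2 and CX3CR1 were the other chemokine receptors above 4.

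Pattern receptors were above for 9 of 20 (45.0%, median 3.95). TLR2, which binds bacterial lipoproteins, read 6.31, 6.09 and 6.23, and TLR4, which binds lipopolysaccharide, read 7.69, 7.88 and 7.67. MYD88, the adaptor of both, read 10.46, 10.58 and 10.55. LY96, which TLR4 needs to bind lipopolysaccharide, read 4.17, 4.21 and 3.80 and could not be told apart from 4, and CD14 was below as given above. TLR1, TLR3 and TLR5 to TLR10 on the list were all below. Of the cytosolic sensors NOD1, NLRP3, RIGI, IFIH1, CGAS and STING1 were above, and NOD2 and AIM2 were below, a call that NOD2 lost when any 1 replicate was left out.

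Colony-stimulating factor and interleukin receptors were above for 15 of 29 (51.7%, median 4.52). CSF2RA and CSF2RB, the chains of the GM-CSF receptor, read 7.95, 7.91 and 7.99 and 7.91, 7.72 and 7.58. CSF3R, the receptor for G-CSF, read 7.74, 7.90 and 7.83. The receptors of both granulocyte growth factors were above the mark, in contrast with CSF1R, which straddled it. IL2RB, a chain of the IL-2 and IL-15 receptors, read 4.23, 4.08 and 4.11 and could not be told apart. IL3RA, IL7R, IL1R1 and IL2RA were below. Interferon, TGF-beta and BMP receptors were above for 12 of 17, with IFNGR1, a chain of the interferon gamma receptor, at 10.57, 10.45 and 10.39 and TGFBR2 at 8.48, 8.38 and 8.43. TNF receptor family genes were above for 10 of 27 (37.0%). TNFRSF1A and TNFRSF1B, the TNF receptors, read 9.38, 9.18 and 9.29 and 7.81, 7.71 and 7.88, and FAS, a death receptor, read 7.11, 6.93 and 6.63. TNFRSF10B, a receptor for the death ligand TRAIL, was above and TNFRSF10A, the other signalling one, was below.

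Receptor tyrosine kinases had the lowest share of the receptor lists, 10 of 46 (21.7%, median 2.64). EGFR was below at 2.52, 2.51 and 2.53 on all 9 of its probe sets, and ERBB2, ERBB3, ERBB4, MET, PDGFRA and PDGFRB were below with it. INSR, the insulin receptor, read 8.01, 7.21 and 7.54, with replicate 1 the highest. IGF1R, its relative, read 9.26, 9.48 and 9.36. FGFR1 read 5.51, 5.79 and 5.60, with 3 of its 7 probe sets above 4 and a mean over all of them of 3.73. MERTK and TYRO3, which clear dead cells, were above, and AXL of the same family was below.

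Nuclear receptors were above for 17 of 40 (42.5%, median 3.43). RARA, the retinoic acid receptor through which myeloid lines are made to differentiate, read 5.71, 5.73 and 5.63, and RXRA, its partner, read 8.98, 8.97 and 8.77. VDR, the vitamin D receptor, read 7.82, 7.49 and 7.91, and PPARG, a lipid-sensing receptor of macrophages, read 7.52, 7.88 and 7.82. NR3C1, the glucocorticoid receptor, read 9.84, 9.75 and 9.82. These 5 were above 4 on every array. ESR1, the estrogen receptor, was below at 3.37, 3.66 and 3.35 on all 9 probe sets, and THRA, a thyroid hormone receptor, read 4.10, 4.11 and 4.21 and could not be told apart.

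Integrins were above for 11 of 25. ITGB2, the beta chain common to leukocyte integrins, read 12.05, 12.28 and 12.23. Of its partners ITGAL read 6.74, 7.40 and 7.29, with replicate 1 the lowest, and ITGAX, the CD11c chain, was below at 3.25, 3.39 and 3.27. ITGA4, which binds VCAM1, read 11.24, 11.16 and 11.26. ITGB7, a gut-homing chain, read 4.06, 4.19 and 3.96 and could not be told apart. Scavenger and lipoprotein receptors were above for 6 of 13. CD36, which takes up oxidised lipoprotein, read 9.16, 8.77 and 9.05, and 3 of its 5 probe sets were above. LRP1, a large endocytic receptor, read 3.24, 3.90 and 3.46 and was called below (adjusted p = 0.0174), and without replicate 1 it could not be told apart from 4 (adjusted p = 0.065). MSR1, OLR1, STAB1 and STAB2 were below.

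Costimulation and adhesion genes split evenly, 9 of 18 on each side. ICAM1 read 7.70, 7.45 and 7.64, SELPLG, the ligand of selectins, read 7.22, 7.17 and 7.27, and CD44, the hyaluronan receptor, read 10.91, 10.94 and 10.96. CD86, which costimulates T cells, was below at 2.75, 2.78 and 2.76, together with CD80 and CD274. Receptors for purines, lipids and amines were above for 14 of 34 (41.2%). P2RY2, an ATP receptor that attracts monocytes, read 6.73, 6.72 and 6.81. HRH2, a histamine receptor, was below at 2.49, 2.50 and 2.49. HRH1 (4.28, 3.96 and 3.74), PTGER3 (4.08, 3.93 and 3.82) and ADORA1 (4.00, 4.23 and 4.17) could not be told apart from 4. PTGER2 and PTGER4, the prostaglandin receptors that raise cAMP, were above.

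**Figure D4:**
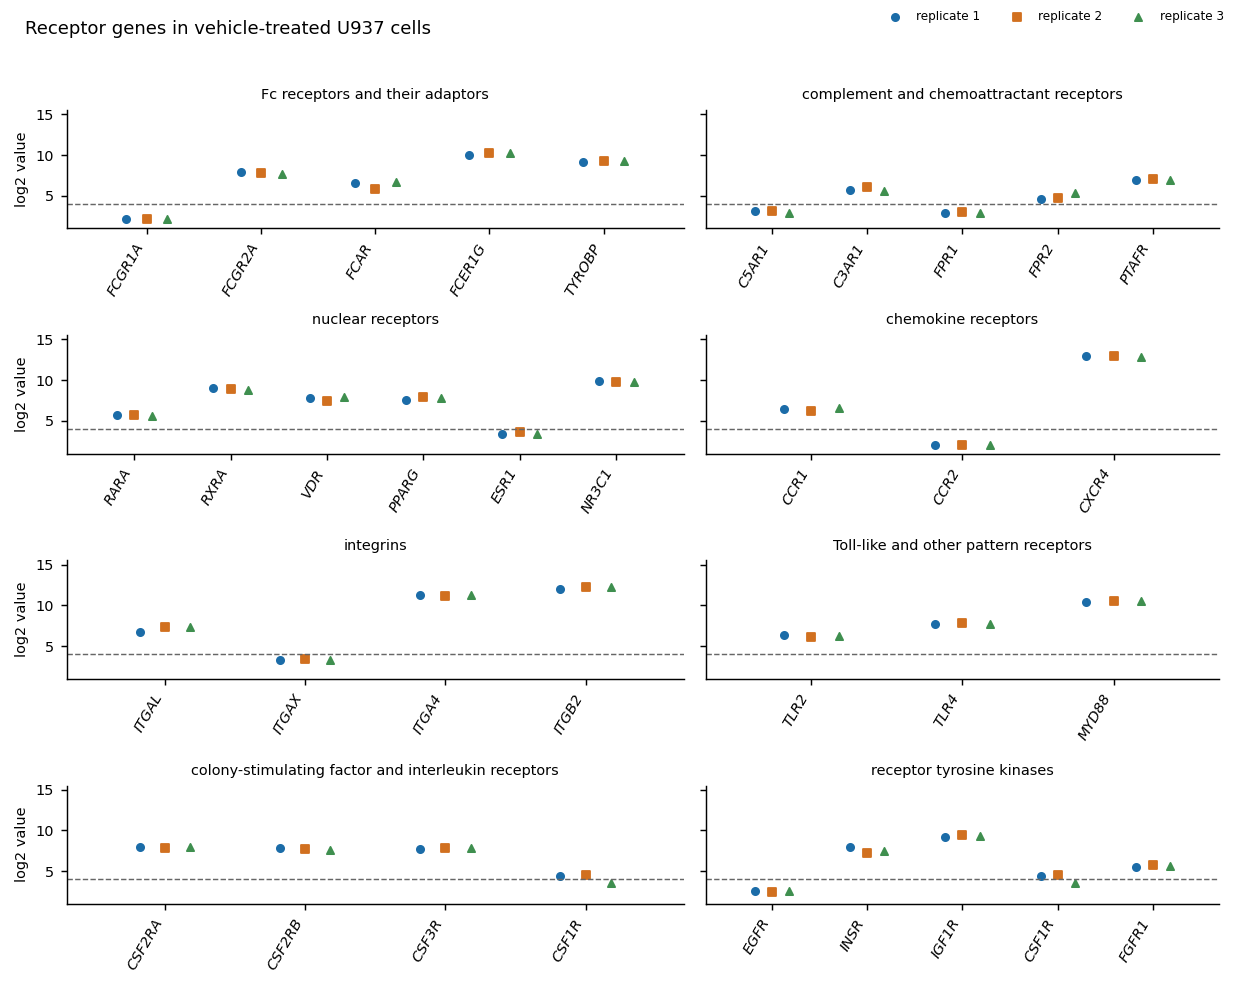
Each panel plots log2 values (vertical axis) of named receptor genes on the 3 vehicle arrays, one symbol per replicate, with the dashed line at 4. CXCR4, ITGB2, ITGA4, MYD88 and the Fc receptor adaptors lie over the line, FCGR1A, C5AR1, FPR1, CCR2 and EGFR under it, and CSF1R on both sides.

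The replicates were close over all genes and less so where a gene was above the mark. The median SD of a gene over the 3 arrays was 0.0471 on the log2 scale for all genes, 0.0988 for those above 4 and 0.0199 for those below. It was widest for the 387 genes not told apart, at 0.223, but the test itself tends to place genes with a large SD there. By level the median SD went from 0.0135 under 2.5 to 0.160 between 4 and 6, and back to 0.0467 from 12 upward. An SD above 0.5 was seen in 85 genes above 4 (0.908%). By level, the median SD was thus largest between 4 and 6. GATA2 (SD 0.37) and SOD2 (SD 0.46) lie there, but so does SPI1, with an SD of 0.10. GCRMA draws dim probe sets into a narrow range, so a small SD at low levels does not show a more precise level.

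The arrays did not differ from each other equally. Pearson's r over all genes was 0.998 between replicates 1 and 2, 0.998 between 1 and 3 and 0.999 between 2 and 3, each across genes, which are not independent replicates. Among genes above 4 the median absolute difference was 0.140 between replicates 1 and 2, 0.114 between 1 and 3 and 0.0864 between 2 and 3. Over 2-fold differences numbered 53, 26 and 13 in the same order. Replicate 1 was the array farthest from the other 2 in 45.3% of genes above 4, replicate 2 in 32.6% and replicate 3 in 22.1%.

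The 10 genes above 4 with the largest SD were picked by that spread and are given as a description. H2BC12L, a histone H2B gene, read 9.34, 6.89 and 8.70, and the H2B genes H2BC9 and H2BC6 read 6.50, 4.32 and 5.55 and 7.78, 6.14 and 7.28. H4C11, a histone H4 gene, read 7.0, 5.18 and 6.08. All 4 histone genes had replicate 1 highest and replicate 2 lowest. EIF3C, a translation initiation subunit, read 7.92, 5.82 and 6.42, and INO80D, of a chromatin remodeller, read 7.70, 5.85 and 6.97. MAP3K12, a stress kinase, read 6.85, 6.04 and 4.78 with replicate 3 lowest, and SYNC, an intermediate filament protein, read 6.53, 4.77 and 4.98. FOLR1, a folate receptor on the one-carbon list, read 12.74, 11 and 11.02 on 1 of 2 probe sets, the other having a mean of 2.37. HINT3, a nucleotide hydrolase, read 7.71, 9.32 and 7.93 and was the one of the 10 with replicate 2 highest.

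**Figure D5:**
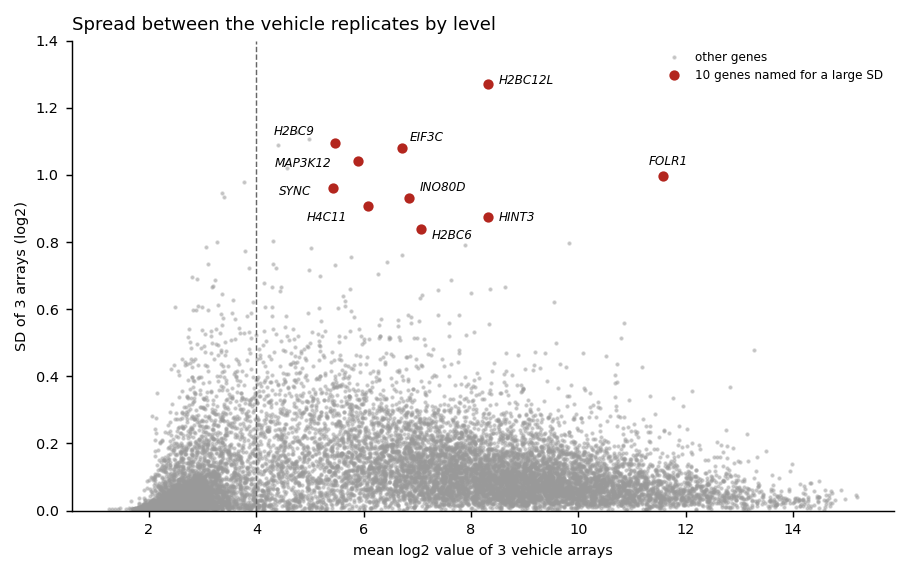
Each point is a gene, placed by its mean log2 value over the 3 vehicle arrays (horizontal axis) and the SD over them (vertical axis, log2), with a dashed line at 4 and the 10 named genes in red. The cloud is narrow under 2.5, widest between 4 and 6 and narrow again from 12 upward, and the named genes stand over it with SDs from 0.840 to 1.27.

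The promoters of genes on both sides of the mark were set side by side as a description, with no test. RefSeq promoters of 300 bases in GRCh38.p14, from 250 before the start to 50 after it, were matched to 15382 of the 19775 genes. The dinucleotide CG, which reads the same on both strands, had a median count of 27 in the 7824 promoters of genes above 4 and 12 in the 7267 of genes below, against 22 over all measured genes. A count of 10 or more was found in 90.5% of promoters above and 55.0% below, against 73.5% of all 15382 measured genes and 56.0% of all 27305 promoters in the table. TATAAA on the gene's own strand was found in 3.25% above and 9.10% below, against 6.01% of measured genes and 7.71% of all promoters. With either strand counted these shares were 5.04%, 12.9%, 8.76% and 11.95%. The 2 motifs do not overlap, and a match is a description of the letters.

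The lists had unlike medians of the same count. Cholesterol synthesis promoters had a median of 31 CG pairs and complex I promoters 25. Monocyte and macrophage markers had a median of 3 (20 promoters), late neutrophil genes 3 (15), Fc receptor genes 5 (11) and azurophil granule genes 7.5 (8). Not every list member had a promoter to match, and ELANE, MPO and LYZ had none. CTSG, whose promoter is printed with the granule genes, has 3 CG pairs in its 300 bases and read over 13 on each array. Within the redox lists, members above 4 had a median of 28 and members below 4 a median of 9, and for receptors the medians were 21 and 9. Metabolic members had closer medians, 26 above and 20.5 below. Within the lineage lists they were 12 and 5. The granule and Fc receptor lists, most of whose members lay above 4, thus had medians under the 27 of all genes above 4.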

How the data were processed

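The deposited table holds log2 values that the authors made with Affymetrix Expression Console and GCRMA, per the submitters' processing notes, from 200 ng of total RNA per array, per the labels' protocols. The protocols describe random-primed labelling for whole-transcript arrays, whereas the probe set names are those of an expression array with probes near the 3' end, and this difference was not resolved. Versions are not given in the sources used here. GCRMA's background correction draws dim probe sets into a narrow range. Probe sets were named through GEO's platform annotation: 41097 had 1 gene symbol, 1801 had several and 11777 had none, and only the first kind was used. Of these, 41043 matched RefSeq.

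Each gene was represented by whichever of its probe sets was brightest on average on the vehicle arrays. The difference of each gene's values from 4 was fitted with limma 3.58.1 in R 4.3.3 (intercept only, 2 residual degrees of freedom, trended prior), with Benjamini-Hochberg adjustment over 19775 genes and a threshold of 0.05. The script was tested on simulated data. With 3 arrays the number of arrays limits the precision, and the p-values speak only of the spread among these arrays.

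The members and the 60 gene lists (1178 genes, of which 106 were not analysed here) were chosen with earlier results of these data known. Values are printed for the genes marked in the lists, for members on the smaller side of a list (at most 3), for up to 4 members per list not told apart from 4, and for the 10 genes above 4 with the largest SD, leaving out unnamed loci, olfactory and small RNA genes. Other members are named by side only. Alternatives were other marks, other probe set rules, other normalizations, another prior, all 12 arrays in the fit and leaving out each replicate.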

Additional observations from a re-analysis of the deposited data

How the results depend on the processing

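The counts of 9362 genes above 4 and 10026 below it stayed within 1.5 times under each other mark, prior, normalization and probe set rule tried, except that every probe set on its own gave 16955 above, 22921 below and 1221 not told apart, because more features are tested. A mark of 3 left 726 not told apart. The 4 shares of lineage, metabolic, redox and receptor genes above 4 stayed within 1.5 times under every alternative run. With every probe set on its own, they were 28.5%, 65.9%, 45.5% and 32.7% in that order. The same setting put 16955 of all 41097 probe sets above 4. How far a share lay from the background thus depended on the probe set rule. The median SD was 0.0384 with the mean of all probe sets of a gene and 0.0998 over genes with a mean of at least 4, and ran from 0.0270 to 0.0418 when 1 replicate was left out. No paired analysis was possible because the values come from 1 group, with no second group to pair it with. Of the 232 genes chosen for printed values, 200 kept their call and direction in all settings run on them. Those settings keep 1 value per gene and the mark at 4. In 1 or more of them, 14 genes had a mean on the other side of 4. With the mean of all probe sets these were ADORA1 (3.26), COL1A1 (3.03), CR1 (3.37), DDAH2 (3.67), DHODH (3.97), ENO3 (3.36), FGFR1 (3.73), GAD1 (3.84), GATA2 (3.31), GUCY1A2 (3.07), MUC1 (3.04), SLC40A1 (3.52) and THRA (3.18). Without probe sets of the type that can match several transcripts they were COL1A1 (2.70), CR1 (3.85) and TPSAB1 (2.04). With all 12 arrays in the fit, a setting added for single genes after seeing the data, HAMP, MUC1, SLC11A1 and SLC40A1 lost their call and KLF1 and SLC7A7 gained one; with a constant prior, likewise added, H2BC9 and LRP1 lost theirs and IL2RB and THRA gained one. Genes named by side only are not in the count of 232. Among all 1072 list genes measured, 63 changed call in 1 or more settings that keep the mark at 4. With the mean of all probe sets, APOE, CEACAM6 and HLA-DOB were called below, and MSI2, EBF1, PPOX and SLC2A9 could not be told apart. The averaging of bright and dim probe sets moves these levels down by construction, and the choice of the brightest moves them up. Signal near background limits what a level below 4 can show.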

Other observations

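Histone genes were looked at after 4 of them had been seen among the 10 genes with the largest SD. Of 43 measured genes named H1-1 to H1-6, H2AC, H2BC, H3C or H4C, with pseudogenes left out, 8 lay above 4. Replicate 1 was the highest array and replicate 2 the lowest in 7 of those 8. The 4 that prompted the look are among the 7, and without them the count was 3 of 4. The same order was found in 2331 of the 9362 genes above 4 (24.9%). Histone genes are near copies of each other, and their probe sets are not independent of one another. The cause of this order was not tested.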
